A study of Physcomitrium patens with 6 samples.

Results

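The genes described here are isolated genes strongly lowered in Ppddm1, the DDM1 knockout of the moss Physcomitrium patens. They number 153 of the 19584 chromosomal genes with at least 10 counts over 6 RNA-seq libraries (0.781%). Each was chosen by its own level. A gene was taken as low when its wild type mean was at least 2 counts per 1000000 counts of its library (CPM), when no Ppddm1 library reached the lowest wild type library, and when the Ppddm1 mean was at most the wild type mean divided by 2. There were 520 such genes (2.66% of the ordered genes), one of which is PpDDM1 itself. The members are the low genes that had no other low gene directly beside them in the order of gene identifiers and whose Ppddm1 mean was at most the wild type mean divided by 3, with PpDDM1 left out. A further 250 isolated low genes lay above that last limit, and 116 low genes had a low neighbour. Because the fall in Ppddm1, the separation of the libraries and the lack of a low neighbour chose these genes, these properties are given as a description and carry no test.

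RNA was taken from protonema, the network of filaments that grows first from a moss spore, after 7 days on BCDAT medium at 25 °C with 16 h of light and 8 h of dark. There were 3 libraries of Ppddm1 and 3 of wild type, all labelled with the strain Grandsen, and replicates 1 and 2 of each genotype are labelled batch 1 and replicate 3 batch 2. Ppddm1 is a single knockout plant line in which a Zeocin resistance cassette replaced the coding region of PpDDM1 by homologous recombination, so an effect of the mutation and one of that line cannot be told apart. The libraries were repetitions of the RNA extraction that no source used here calls separate cultures, so the p-values reflect variation among these preparations, part or all of which could be technical.

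DDM1 is a chromatin remodeler of the Snf2 family, an ATPase that moves nucleosomes. In flowering plants it is known for keeping DNA methylation in place over transposable elements (TEs) packed in heterochromatin, and its loss there is known mainly for TEs that become transcribed. Protonema is built of chloronema, rich in chloroplasts, and of the faster growing caulonema.

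The libraries held 3767473, 4105086 and 10536543 counts in Ppddm1, against 2784259, 4272928 and 6079718 counts in wild type, so Ppddm1 replicate 3 had the largest total. These are totals of the count table. They differ from the library sizes listed for the same samples, for a cause that was not found. Ppddm1 replicate 3 held more counts than its listed library size, and every other library held fewer. Depth here therefore means counts in the table. PpDDM1 (Pp3c17_19520, chromosome 17) had 1.06, 0.974 and 1.04 CPM in Ppddm1, against 15.1, 18.3 and 26.5 CPM in wild type, a level of 5.15% of wild type, so the targeted gene went with every label. Its log2 fold change was -4.31 (standard error 0.32), with an edgeR adjusted p of 1.93e-05. Reads that matched several places were assigned at random by the authors, which leaves near-identical genes uncertain. The files and the reference table used here pair none of the 153 identifiers with a name, so neither roles of the members nor markers of protonema were checked, and the text uses the identifiers as deposited. An identifier gives the chromosome after Pp3c, followed by the gene's number. In such bulk RNA, fewer cells that express a gene and less RNA per cell cannot be told apart.

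In wild type protonema the members covered a wide range of levels, from 2.03 to 375 CPM with a median of 13.1 CPM, while all 16887 ordered genes of at least 2 CPM in wild type had a median of 24.9 CPM. Their excess lay mainly at the low end of that range. Of the 153 members, 47 lay under 5 CPM in wild type (30.7%, against 10.4% of those 16887 genes) and 25 lay at 100 CPM or more (16.3% against 11.8%). The middle class from 10 to under 50 CPM held 42 members (27.5% against 50.9%). The class from 50 to under 100 CPM held 17 members (11.1% against 15.1%), so the upper classes went opposite ways. In Ppddm1 the members had means from 0.0812 to 110.0 CPM with a median of 2.68 CPM.

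**Figure D1:**
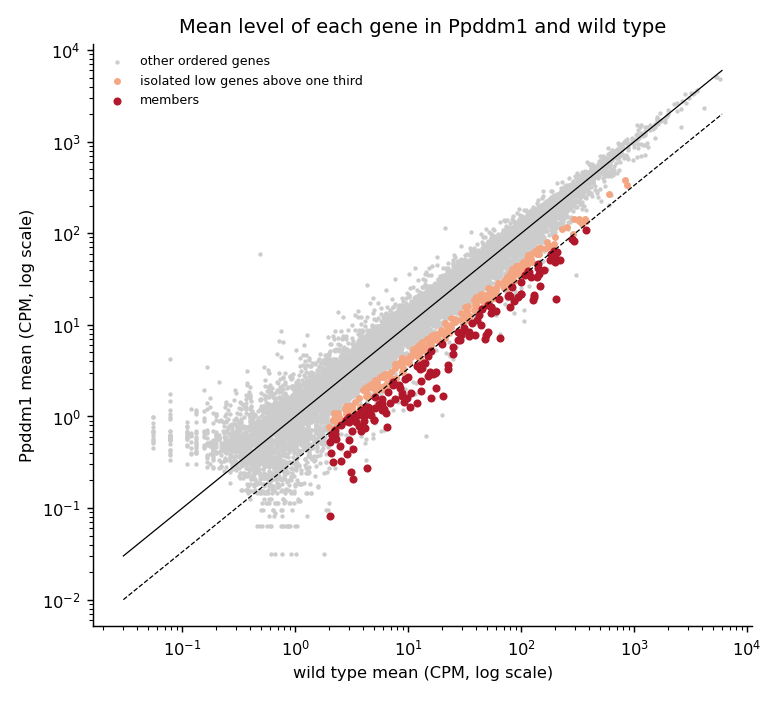
Mean level of each ordered gene in Ppddm1 (vertical, CPM, log scale) against wild type (horizontal, CPM, log scale), 1 point a gene, for genes with a mean above 0 in both genotypes. The solid line marks equal means and the dashed line a Ppddm1 mean of the wild type mean divided by 3, under which all 153 members lie.

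Most of the members stood between 10% of wild type and the limit that chose them. As a share of wild type, the Ppddm1 level ran from 3.99% to 33.3% with a median of 24.8%, and the median log2 ratio of the means was -2.01. Only 6 members were under 10% of wild type, 41 lay from 10% to 20%, 31 from 20% to 25% and 75 from 25% up to the limit. Summed over the members, the libraries held 1889, 1440 and 1920 CPM in Ppddm1, against 6312, 7057 and 7354 CPM in wild type. The sums averaged 1750 ± 269 CPM in Ppddm1 and 6908 ± 537 CPM in wild type (SD, n = 3 each), which is 25.3%. None of the members was silent in Ppddm1 in all libraries, and 7 had at least 1 Ppddm1 library without a read. No wild type library lacked reads of any member, which the rule required.

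Of the 12 members with the lowest Ppddm1 level relative to wild type, the first 4 had few reads in either genotype. Pp3c3_34390 had 0, 0.244 and 0 CPM in Ppddm1, against 1.80, 2.34 and 1.97 CPM in wild type, which rests on 1 read in Ppddm1 and 27 reads in wild type. Its pooled Ppddm1 level was 2.64% of wild type (95% exact interval 0.0646% to 16.0%, counting error only). Pp3c9_2960 had 0.531, 0 and 0.285 CPM in Ppddm1, against 2.51, 7.02 and 3.45 CPM in wild type, or 6.28% of wild type. Its wild type libraries were far apart, with replicate 2 the highest, and its Ppddm1 libraries were all low. Pp3c11_3190 had 0, 0.244 and 0.380 CPM in Ppddm1, against 4.31, 3.74 and 1.64 CPM in wild type, or 6.43%. Pp3c4_16360 had 0.265, 0 and 0.475 CPM in Ppddm1, against 1.44, 3.98 and 3.95 CPM in wild type, or 7.90%. In each of these 4 genes at least 1 Ppddm1 library had no read, so their folds rest on few reads.

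The next members of that order were sampled better. Pp3c12_15510 had 1.06, 0.974 and 2.94 CPM in Ppddm1, against 20.8, 21.5 and 17.9 CPM in wild type, which is 8.26% of wild type and a fitted log2 fold change of -3.31 (standard error 0.30). Pp3c3_15190 had 13.3, 14.6 and 29.04 CPM in Ppddm1, against 227, 181 and 206 CPM in wild type, or 9.27% of wild type. It was the only member under 10% that was also among the 12 members highest in wild type, with 416 reads in Ppddm1 and 2658 in wild type, and its log2 fold change was -3.38 (standard error 0.26). Pp3c13_23840 had 0.265, 1.71 and 2.85 CPM in Ppddm1, against 14.01, 15.7 and 18.1 CPM in wild type. Pp3c9_2920 had 6.10, 3.17 and 12.1 CPM in Ppddm1, against 59.3, 65.3 and 70.9 CPM in wild type, or 10.96% of wild type. In these 4 members Ppddm1 replicate 3 was the highest of its genotype, while their wild type libraries lay close together.

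Pp3c9_12560 had 3.19, 1.95 and 1.04 CPM in Ppddm1, against 20.1, 18.02 and 15.1 CPM in wild type, and in it replicate 3 was the lowest library of both genotypes. Pp3c12_13360 had 0.531, 2.68 and 1.04 CPM in Ppddm1, against 13.6, 9.83 and 12.5 CPM in wild type. Pp3c4_15600 had 0.265, 0.731 and 1.33 CPM in Ppddm1, against 3.95, 7.25 and 8.39 CPM in wild type, a wide spread in both genotypes. Pp3c7_3560 had 0, 1.46 and 2.37 CPM in Ppddm1, against 8.26, 10.8 and 12.01 CPM in wild type, with no read in Ppddm1 replicate 1 and the highest Ppddm1 level again in replicate 3. Over these 12 members the percent of wild type ended at 12.4%, and their fitted log2 fold changes lay between -4.76 (standard error 0.89) for Pp3c3_34390 and -2.72 (standard error 0.42) for Pp3c7_3560.

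**Figure D2:**
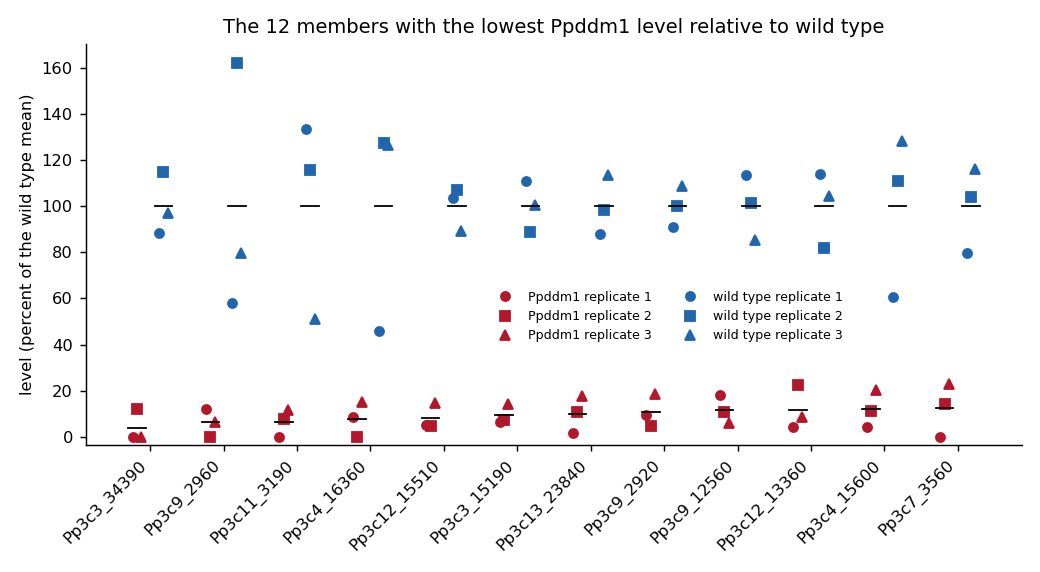
Level of the 12 members with the lowest Ppddm1 level relative to wild type in each library, as a percent of the gene's wild type mean; red symbols are Ppddm1 libraries, blue symbols wild type libraries, and black bars the means of 3. The Ppddm1 means lie between 3.99% and 12.4%, and the wild type libraries scatter most for Pp3c9_2960.

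The members most abundant in wild type carry a large part of the RNA concerned. The 12 highest held 39.1% of the summed wild type level and 41.9% of the summed Ppddm1 level. Pp3c15_5450, the highest, had 184, 66.99 and 78.7 CPM in Ppddm1, against 301, 414 and 411 CPM in wild type. Ppddm1 replicate 1 was more than 2 times each of the other Ppddm1 libraries there, and wild type replicate 1 was the lowest of its genotype. Its log2 fold change was -1.81 (standard error 0.38), its edgeR adjusted p of 0.0347 was the highest of the 12, and the call was lost without Ppddm1 replicate 3 (0.0618), in batch 1 alone (0.151), with the replicate block (0.177) and with no filter on low counts (0.187). Pp3c14_22890 had 109.6, 69.7 and 69.4 CPM in Ppddm1, against 226, 319 and 329.8 CPM in wild type, with replicate 1 again the highest in Ppddm1 and the lowest in wild type. Pp3c19_13170 had 68.5, 41.7 and 35.02 CPM in Ppddm1, against 167, 205 and 227 CPM in wild type, the same order of replicate 1.

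Of the others of the 12, Pp3c11_2950 shared that order of replicate 1 and the rest did not. Pp3c6_1770 had 46.98, 47.01 and 93.1 CPM in Ppddm1, against 195, 219.8 and 205 CPM in wild type. Its Ppddm1 replicates 1 and 2 were level with each other and replicate 3 stood apart, while its wild type libraries were within a narrow range. Pp3c10_25030 had 86.5, 70.6 and 105 CPM in Ppddm1, against 266, 279.9 and 290.5 CPM in wild type. Pp3c18_14890 had 51.2, 40.2 and 62.2 CPM in Ppddm1, against 235, 195 and 232 CPM in wild type. Pp3c11_2950 had 63.2, 57.2 and 59.2 CPM in Ppddm1, against 155, 196 and 204 CPM in wild type, the smallest spread over Ppddm1 libraries of these 12 members (a mean of 59.9 ± 3.02 CPM, SD, n = 3).

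Pp3c15_8180 had 59.99, 45.8 and 66.2 CPM in Ppddm1, against 207, 207 and 188 CPM in wild type. Pp3c5_14790 had 79.6, 37.5 and 76.1 CPM in Ppddm1, against 227, 181 and 182 CPM in wild type, with replicate 2 the low library in Ppddm1. Both remaining genes are on chromosome 23, and their libraries lay in the same order in Ppddm1, with replicate 3 the highest and replicate 2 the lowest. Pp3c23_21390 had 52.3, 41.2 and 59.4 CPM in Ppddm1, against 197, 163 and 177 CPM in wild type, or 28.5% of wild type. Pp3c23_5980 had 36.4, 34.1 and 48.2 CPM in Ppddm1, against 185, 143 and 153 CPM in wild type, or 24.7%. Apart from Pp3c3_15190, the 12 members lay between 23.2% (Pp3c18_14890) and 32.8% (Pp3c5_14790) of wild type, with fitted log2 fold changes from -2.12 (standard error 0.17) to -1.63 (standard error 0.25).

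**Figure D3:**
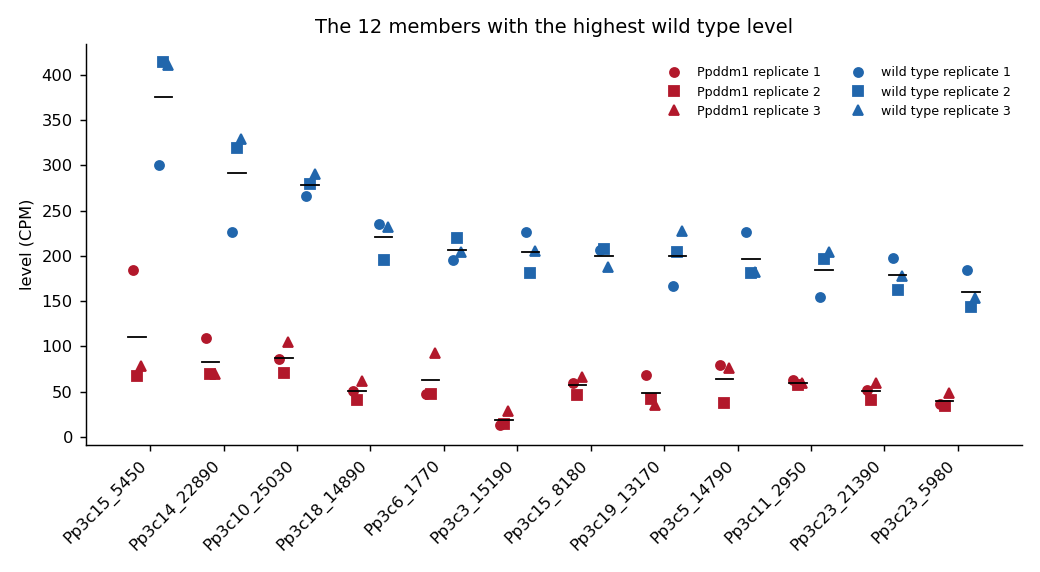
Level in CPM of the 12 members with the highest wild type mean in each library; red symbols are Ppddm1 libraries, blue symbols wild type libraries, and black bars the means of 3. Every Ppddm1 symbol lies below every wild type symbol of its gene, as the choice of the genes requires, and Ppddm1 replicate 1 stands apart for Pp3c15_5450.

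The limit of a Ppddm1 mean of the wild type mean divided by 3 falls within a dense range of ratios. Just inside it, Pp3c5_1510 had 1.59, 0.731 and 0.664 CPM in Ppddm1, against 1.80, 4.21 and 2.96 CPM in wild type, a ratio of 33.31%. Just outside it, the isolated low gene Pp3c8_1870 had 2.65, 1.95 and 1.71 CPM in Ppddm1, against 2.87, 8.66 and 7.40 CPM in wild type, a ratio of 33.33%. Both genes had few reads, and the spread over their libraries is far larger than the step between them. The edgeR adjusted p of Pp3c5_1510 was 0.0428, and it was above 0.05 without Ppddm1 replicate 2 or 3 and without wild type replicate 2 or 3 (0.121 to 0.33). The edgeR value was also above 0.05 with the batch in the fit (0.0732) and in batch 1 alone (0.556). So were the adjusted p of DESeq2 (0.127) and that of limma-voom (0.0528).

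In the edgeR fit over all genes and TEs, 138 of the 153 members were called lower in Ppddm1 (adjusted p under 0.05 and at least 2-fold), beside 2.46% of the 19626 genes tested (483 genes). The same contrast chose the members, so nothing is read from that count. Their median fitted log2 fold change was -2.03, beside 0.01 over the 19626 genes tested. The 15 members that were not called had edgeR adjusted p-values from 0.0527 to 0.25, and 13 of them had under 5 CPM in wild type. The other two were better sampled and varied within Ppddm1. Pp3c13_4270 had 2.39, 1.22 and 10.8 CPM in Ppddm1, against 23.3, 30.7 and 20.1 CPM in wild type. Pp3c1_14250 had 63.7, 33.4 and 18.6 CPM in Ppddm1, against 83.3, 132 and 133 CPM in wild type, with the libraries of Ppddm1 far apart in the opposite sense. In the 4 libraries of batch 1 alone, 76 members were called lower, and 129 were called in the fit that also held the batch.

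The rule asked for no given spread among the Ppddm1 libraries, but it was applied to the values of these same libraries. The spread is therefore not independent of the choice. Genes that the rule did not choose are no fair reference for it, so the values are a description. In the 42 members with at least 50 CPM in wild type, the median coefficient of variation (CV, the SD as a percent of the mean) over the 3 Ppddm1 libraries was 31.6%, and over the 3 wild type libraries it was 13.5%. The 4546 ordered genes of at least 50 CPM in wild type had medians of 10.8% in Ppddm1 and 9.62% in wild type. A lower level alone goes with a larger counting error, so the members were also set beside the 12449 genes whose Ppddm1 mean lay in the members' own range (7.14 to 110.0 CPM), a comparison added after the data were seen. Those genes had a median CV of 12.1% in Ppddm1 and 13.4% in wild type. The 87 other isolated low genes of at least 50 CPM in wild type had 24.4% in Ppddm1 and 8.92% in wild type, so the large spread in Ppddm1 was not particular to the members, and no test of these differences was made.

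Which library was high or low was not even over the members. The same library values chose the members, so the shares here and in the groupings that follow are also a description. Ppddm1 replicate 3 was the highest of its genotype in 76 members (49.7%, against 26.8% of ordered genes of at least 2 CPM in wild type), and Ppddm1 replicate 2 was the lowest in 77 (50.3% against 32.8%). In wild type, replicate 1 was the lowest in 89 members (58.2% against 44.5%). The level of Ppddm1 replicate 3 over the mean of replicates 1 and 2 had a median of 1.28 in the members and 0.999 in those genes. As a share of the wild type mean, the median member stood at 23.2%, 21.1% and 26.5% in Ppddm1 replicates 1, 2 and 3. Ppddm1 replicate 3 differs from replicates 1 and 2 in its batch label and in its depth. It alone also held more counts than its listed library size. These differences cannot be told apart.

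Among the 42 members of at least 50 CPM in wild type, replicate 3 of Ppddm1 stood more than 1.5-fold above the mean of replicates 1 and 2 in 12 (28.6%), and more than 1.5-fold below it in 8 (19.0%). In all ordered genes of that wild type level the shares were 0.858% and 1.17%, in genes of the members' Ppddm1 level 0.900% and 1.20%, and in the 87 other isolated low genes 11.5% each way. The 12 genes above were Pp3c7_7810, Pp3c9_2920, Pp3c3_35160, Pp3c11_3620, Pp3c23_11450, Pp3c15_4030, Pp3c3_15190, Pp3c6_1770, Pp3c20_18520, Pp3c13_16440, Pp3c23_10870 and Pp3c7_13780. Summed over these 12 genes, the level was 228, 235 and 473 CPM in Ppddm1, against 1470.4, 1503 and 1592 CPM in wild type. The sum of Ppddm1 replicate 3 had to stand apart, since the genes were grouped by it. The wild type sums, which did not enter the grouping, stayed within a narrow range. These genes and those below were grouped after their values were seen.

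Pp3c7_7810 shows that order most clearly. It had 12.5, 13.6 and 34.4 CPM in Ppddm1, against 136, 125 and 126 CPM in wild type, and the ratio of replicate 3 to the mean of the others was 2.63 in Ppddm1. Pp3c3_35160 had 9.29, 11.2 and 26.2 CPM in Ppddm1, against 75.1, 81.9 and 81.3 CPM in wild type. Pp3c23_11450 had 20.97, 17.8 and 41.2 CPM in Ppddm1, against 144, 145 and 151 CPM in wild type. In all 3 genes Ppddm1 replicates 1 and 2 were near each other and replicate 3 was higher, though still well under wild type. Pp3c20_18520 had 36.4, 34.1 and 69.0 CPM in Ppddm1, against 124, 155 and 144 CPM in wild type. Pp3c11_3620 had 13.3, 12.4 and 30.3 CPM in Ppddm1, against 155, 99.5 and 129.6 CPM in wild type, where the wild type libraries spread too.

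The 8 genes below had another order. They were Pp3c1_14250, Pp3c22_15350, Pp3c6_6560, Pp3c13_9000, Pp3c2_9700, Pp3c15_5450, Pp3c19_13170 and Pp3c6_6610. Summed over them, the level was 477, 273 and 212 CPM in Ppddm1, against 847, 1265 and 1307 CPM in wild type. In 7 of the 8, replicate 1 was the highest library of Ppddm1 and the lowest of wild type. That order of replicate 1 held in 13 of the 42 members (31.0%), beside 11.8% of the 4546 genes of that wild type level. Pp3c22_15350 had 61.3, 38.98 and 24.1 CPM in Ppddm1, against 103, 151 and 167 CPM in wild type. Pp3c13_9000 had 39.5, 43.8 and 23.5 CPM in Ppddm1, against 78.7, 166 and 184 CPM in wild type, the 1 gene of the 8 in which Ppddm1 replicate 2 was the highest. The sum over the 8 genes was thus highest in replicate 1 of Ppddm1 and lowest in replicate 1 of wild type. Whether the replicate numbers pair libraries across the genotypes was not settled.

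**Figure D4:**
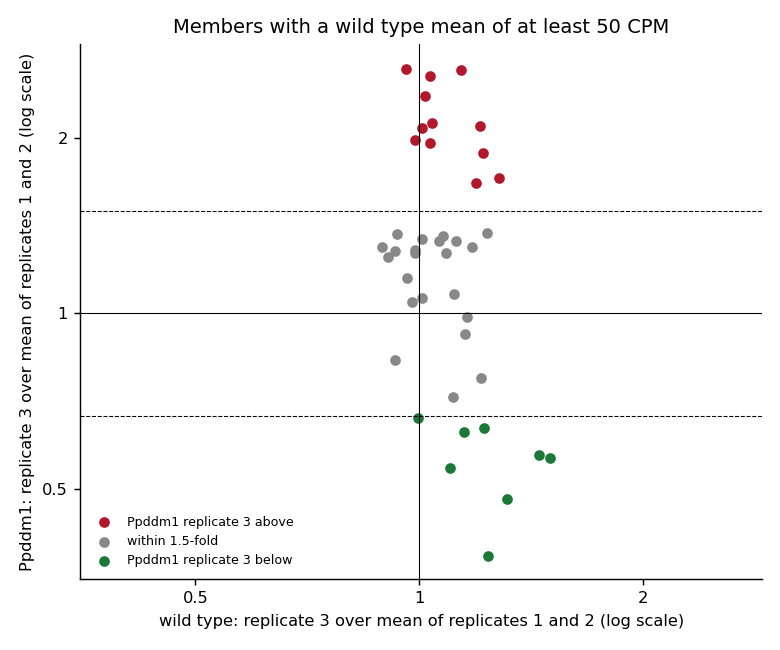
Replicate 3 over the mean of replicates 1 and 2 in Ppddm1 (vertical, log scale) against the same ratio in wild type (horizontal, log scale), 1 point for each of the 42 members with a wild type mean of at least 50 CPM. Dashed lines mark 1.5-fold. The 12 red genes lie between 1.67 and 2.63 in Ppddm1 but between 0.961 and 1.28 in wild type, and the 8 green genes lie between 0.383 and 0.662 in Ppddm1.

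Whether the difference between the genotypes was of another size in batch 2 than in batch 1 was tested as the interaction of genotype and batch in edgeR, over all genes and TEs. Batch 2 holds 1 library of each genotype, whose spread the fit takes from batch 1. No member and no other gene had an adjusted p under 0.05 (lowest 0.9998), and with the library totals alone in place of the TMM factors none had either. At an unadjusted p under 0.05 there were 22 members (14.4%), 15 with a smaller fall in batch 2 and 7 with a larger one, beside 1.69% of the 19626 genes. The interaction rests on the same 6 library values that chose the members, so these shares are a description and nothing is read from them. The lowest was that of Pp3c13_4270, with an interaction of 3.04 on the log2 scale (standard error 0.55, edgeR unadjusted p = 0.000392). Pp3c7_7810 followed with 1.46 (standard error 0.34, edgeR unadjusted p = 0.00198). For the batch term itself, with no interaction, no gene passed after adjustment in edgeR, and 13 members had an unadjusted p under 0.05 (8.50%, 12 of them higher in batch 2), beside 1.56% of genes. None of these differences between batches passed the correction, in members or elsewhere.

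The members were spread over 26 of the 27 chromosomes. Chromosome 16 held none among its 780 ordered genes, although 23 of them were low. Of those 23, 15 had a low neighbour and 8 were isolated but above the limit. The largest share of members was on chromosome 23, with 10 of 604 ordered genes (1.66%), followed by chromosome 13 (1.52%) and chromosome 5, with 12 of 814 (1.47%). On chromosome 5, 9 of the 12 lay in the first 3 of 10 equal parts of the gene order. The smallest share above 0 was that of chromosome 17 (0.295%), beside 0.781% overall. Over all chromosomes the 10 parts of the gene order held from 12 to 20 members, so no end or middle was without them.

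The genes directly beside a member could not be low by the rule, but their smaller changes were free to vary. The 153 members had 306 such neighbour places. The median fitted log2 fold change of these neighbours was -0.05, with 44.1% above 0, beside a median of 0.01 with 51.8% above 0 over all ordered genes tested. The middle range of the neighbours, from the lower to the upper quartile, was -0.32 to 0.12, and that of all ordered genes -0.22 to 0.20. The rule left out genes with a low neighbour, so the lack of large falls at these places is partly its outcome. Of the 306 places, 56 held genes with under 2 CPM in wild type, which the rule did not restrict.

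At 10 of the 306 places edgeR called the neighbour lower (3.27%), and at 1 place higher. Over all genes tested the share called lower was 2.46%. That share takes in the low genes, which the rule kept from these places, so the shares are not alike. Of the 10 places called lower, 4 were genes with under 2 CPM in wild type, which the rule could not take as low. Pp3c9_2950, beside Pp3c9_2960, had no read in Ppddm1 and a mean of 1.70 CPM in wild type. Pp3c8_7410 had means of 0.244 CPM in Ppddm1 and 1.79 CPM in wild type, and it lies between the members Pp3c8_7390 and Pp3c8_7420. Those 3 genes in a row were thus all lower in Ppddm1, and both members count as isolated only because the gene between them was too weak in wild type. A further 5 places held neighbours whose Ppddm1 mean was just over the wild type mean divided by 2. The last, Pp3c20_20900, lies beside Pp3c20_20901, had means of 0.614 CPM in Ppddm1 and 3.85 CPM in wild type, and was left out by the rule because its libraries overlapped. The gene called higher, Pp3c10_21880 beside Pp3c10_21810, had no read in wild type and a mean of 1.72 CPM in Ppddm1.

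Farther from the members, where the rule set nothing, other low genes were somewhat more frequent than in the whole order. At 2 to 5 places, 46 of 1220 genes were low (3.77%), and at 6 to 10 places 52 of 1524 (3.41%), beside 2.66% of all ordered genes. The highest share was at 3 places, 17 of 305 (5.57%), and at 4 and 5 places it was 2.62%. Some of these low genes were members themselves: 8 of 13 at 2 places, 4 of 17 at 3 places and 2 of 8 at 4 and at 5 places. Such pairs of members are counted from both sides. A window can also be counted for more than one member, and these shares carry no test. The nearest low gene lay a median of 18 places away, 27 members had one within 3 places, and 94 had none within 10. Pp3c2_9700 was the most remote, 167 places from the nearest low gene.

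Pairs of consecutive members lay at most 5 places apart in 8 cases, which take in 15 members. Pp3c6_6560 and Pp3c6_6610, 2 places apart, had like levels and the same order of libraries. Pp3c6_6560 had 22.6, 14.9 and 10.2 CPM in Ppddm1, against 36.3, 68.1 and 57.4 CPM in wild type. Pp3c6_6610 had 20.7, 16.6 and 12.3 CPM in Ppddm1, against 39.1, 63.4 and 51.2 CPM in wild type. Both stood highest in Ppddm1 replicate 1 and lowest in wild type replicate 1, and the gene between them, Pp3c6_6603, had under 1 CPM in both genotypes.

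The genes between other pairs were mixed. Pp3c9_2920 and Pp3c9_2960 are both among the 12 members with the lowest ratio. Between them lie Pp3c9_2940, with means of 27.4 CPM in Ppddm1 and 28.5 CPM in wild type, and Pp3c9_2950, the gene with no read in Ppddm1 that edgeR called lower. Pp3c3_15040, 2 places from the abundant Pp3c3_15190, had 0.531, 0.974 and 1.80 CPM in Ppddm1, against 7.18, 2.81 and 2.30 CPM in wild type. Between them Pp3c3_15090 had means of 8.93 CPM in Ppddm1 and 15.4 CPM in wild type, 57.9% of wild type. On chromosome 23, Pp3c23_910, Pp3c23_940 and Pp3c23_1037 followed each other within 6 places. Pp3c23_940 had 6.37, 9.50 and 7.40 CPM in Ppddm1, against 28.7, 55.2 and 61.5 CPM in wild type, or 16.0% of wild type. Pp3c23_920, between it and Pp3c23_910, had means of 58.0 CPM in Ppddm1 and 51.3 CPM in wild type. Between Pp3c23_940 and Pp3c23_1037, by contrast, all 3 genes had the lower mean in Ppddm1, Pp3c23_960 with 35.5% of wild type, Pp3c23_970 with 57.3% and Pp3c23_1030 with 23.8%. The libraries of Pp3c23_970 and Pp3c23_1030 did not overlap, and edgeR called none of the 3 genes.

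**Figure D5:**
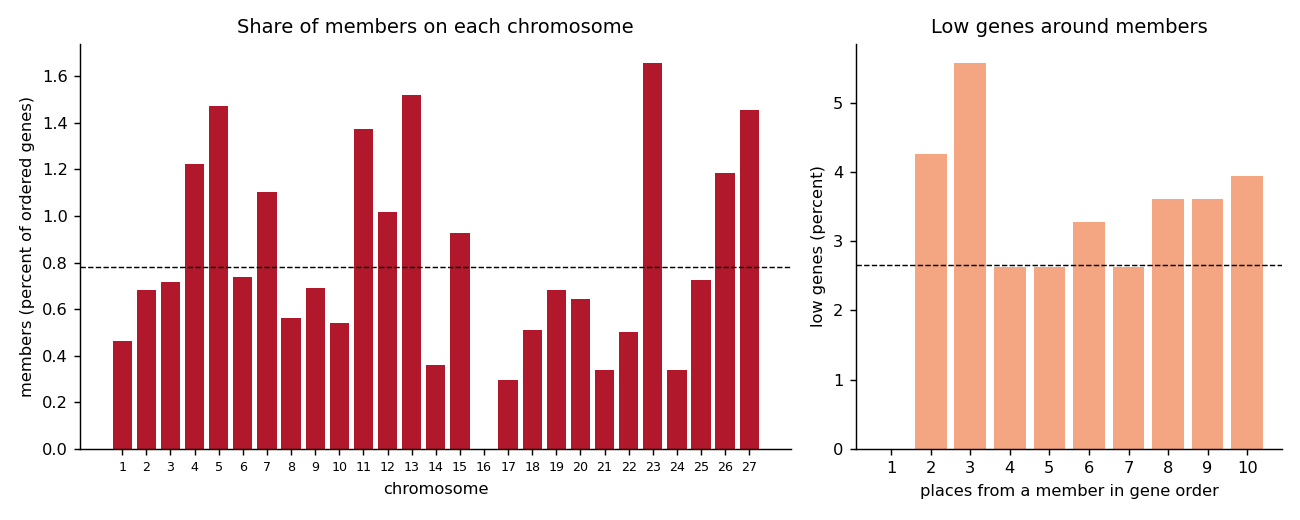
Left, members as a percent of the ordered genes of each chromosome, with a dashed line at 0.781% for all chromosomes; chromosome 16 has none and chromosome 23 the highest share at 1.66%. Right, low genes as a percent of the genes 1 to 10 places from a member, with a dashed line at 2.66% for all ordered genes; the share is 0 at 1 place by the choice of the members and highest at 3 places with 5.57%.

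The members also lay beside silent or nearly silent genes, somewhat more often than other genes did and with no test made. Of the 306 gene rows that flank a member in the full identifier order, 113 had under 10 counts over the 6 libraries (36.9%), beside 31.2% for ordered genes of at least 2 CPM in wild type. Both flanking rows had under 10 counts for 20 members (13.1%, beside 10.4%). The lack of a low neighbour was therefore judged across such silent rows for many members. With the order taken over all chromosomal gene rows instead, 171 genes met the rule, among them all 153 members. A row under 10 counts could not be low by the rule, so that order could only add genes.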

How the data were processed

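The authors deposited raw read counts per gene and per TE for 6 RNA-seq libraries of polyA RNA (500 ng of total RNA each). Trimming used Trim Galore 0.6.0 with cutadapt 1.15, and alignment used STAR 2.7.0f, the versions given in the submitters' processing notes, and multimapped reads were assigned at random. Which program counted the reads, and whether by strand, is not given in the sources used here. Genotype, replicate and batch were taken from the sample labels.

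CPM values are counts divided by the column total over genes and TEs. Gene rows whose counts summed to 10 or more were ordered by the chromosome and number of the identifier, and the rule stated in the report was applied. A single edgeR 4.0.16 model (R 4.3.3, TMM factors, robust quasi-likelihood test, genotype alone) took all 20647 features past that minimum, 19626 of them genes, with Benjamini-Hochberg adjustment over all. Calls needed a 2-fold change or more and an adjusted p below 0.05. Limma, the package named in the study's methods, was run as an alternative (limma 3.58.1 with voom), as was DESeq2 1.42.0.

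The members and lists were chosen with earlier results of these data known. Named members are the 12 with the lowest ratio, the 12 with the highest wild type mean, any with no count in Ppddm1 (there were none) and the genes at the limit. Others are named after their values were seen, for their spread, their place or a missed call. Word lists of gene roles were not run, since no table used here names these identifiers. Beyond the column totals and the fits, TEs were not used. DNA methylation and fold changes listed by the study were not used. Depth ranged from 2784259 to 10536543 counts per library, so 1 read was worth from 0.0949 to 0.359 CPM. Libraries of a genotype all differed by more than sampling noise. Alternatives were the scaling, filter, tool, batch, replicate block, limits of the rule and each library left out, and 2 comparison groups of genes for the spread were added after the data were seen. Figures were drawn with matplotlib 3.10.9.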

Additional observations from a re-analysis of the deposited data

How the results depend on the processing

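The number of members moved with the limits of the rule and with single libraries. With at most the wild type mean divided by 4, 78 genes met the rule and their median log2 ratio was -2.42. With each replicate left out in turn, 148 to 183 genes met it, of which 121 to 140 were among the 153, and the median log2 ratio lay between -2.08 and -1.94. In edgeR, 76 members and 229 genes were called lower in batch 1 alone, a fit on 4 libraries. With each replicate left out in turn, 105 to 137 members and 340 to 519 genes were called. The replicate block gave 141 members and 520 genes. Correlations of same-numbered deviations across the genotypes were 0.19, 0.143 and -0.00655 for replicates 1, 2 and 3. Replicates 1 and 2 correlated best with their own number and replicate 3 did not. Such correlations over 3 libraries of each genotype cannot decide whether the numbers pair the libraries. The fold changes of the 24 named members stayed negative wherever they were fitted in 15 alternative fits, from -6.53 to -1.36. The rule chose the members for their fall in these same libraries, so a negative sign was largely set in advance. The fit with the stricter filterByExpr count filter kept 20 of the 24 named members. It kept 127 of the 153 members, 124 of them called. DESeq2 called 127 members lower and limma-voom 132. Of the 356 fitted values of the named members, 16 lost the call. These were of Pp3c3_34390, Pp3c9_2960, Pp3c4_16360, Pp3c15_5450 and Pp3c5_1510. Without Ppddm1 replicate 3 the call was lost for Pp3c3_34390 (edgeR adjusted p = 0.0606). For Pp3c15_5450 the replicate block gave an edgeR adjusted p of 0.177, and no filter on low counts gave 0.187. The share of low genes 2 to 5 places from a member was 4.17% with the order over all chromosomal gene rows. Depth limits the weak members most: 10 had under 10 reads in Ppddm1, and 61 had 100 or more.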
